A study of Mus musculus with 30 samples.

Results

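The respiratory genes described here are the 40 nuclear genes whose symbols name a subunit of respiratory complex II, III, IV or V or the electron carrier cytochrome c, out of 49585 rows in the deposited expression table. No expression value entered the rule, which matches gene symbols, although the set was picked with earlier results of these data known: 4 for complex II, 9 for complex III, 1 for cytochrome c, 11 for complex IV and 15 for complex V. RNA was sequenced from 8-cell mouse embryos of BDF1 x BDF1 parents, kept in KSOM medium. In the first group Yy1, which encodes a zinc finger transcription factor, was knocked down with a reagent numbered 1 in the titles, apparently an siRNA from the prefix of the table's column names, and the second group had a control knockdown. Each group held 2 libraries, prepared from total RNA with a strand-specific SMART-Seq kit. The sources used here do not give the number of embryos in a library, and the other 26 of the 30 samples of the series were not analysed here.

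The respiratory chain of the inner mitochondrial membrane hands electrons from complex to complex and pumps protons, and complex V, the ATP synthase, lets the protons flow back to make ATP. Complex II, succinate dehydrogenase, is built from nuclear genes alone, whereas complexes III, IV and V combine nuclear subunits with subunits encoded in mitochondrial DNA. Cleavage-stage mouse embryos carry mitochondria inherited from the oocyte. In mouse skeletal muscle, YY1 is known to work with the coactivator PGC-1alpha on genes of this kind.

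The values are FPKM, fragment counts divided by gene length and library size, and the steps between them gave library totals of 29302489 to 34429515 fragments. Yy1 itself had 5.89 and 7.98 FPKM in the Yy1 knockdown libraries, against 77.7 and 71.2 FPKM in the control libraries. That is 10.7-fold lower on group means (limma adjusted p = 0.0556). All 11 markers of 8-cell blastomeres averaged at least 1 FPKM, and their summed level was 3105 and 2896 FPKM in Yy1 knockdown against 3109 and 2848 FPKM in control. Dppa3 alone averaged 2068 FPKM, so this sum mostly reflects that gene and does not show each marker. Of the 14 cumulus and granulosa cell markers only Amhr2 reached that level, Fshr, Inha, Has2 and Ptx3 were listed at 0 in all 4 libraries, and the list summed to 8.10 and 7.94 FPKM in Yy1 knockdown against 5.64 and 5.58 FPKM in control. Of the 10 sperm markers only Cyct did, Prm1, Tnp1, Tnp2, Odf1, Akap4 and Smcp were listed at 0, and the list summed to 3.999 and 4.69 FPKM in Yy1 knockdown against 2.44 and 2.08 FPKM in control. The part of these other cell types in the results was not tested. No marker of blood cells (7 genes), fibroblasts (4) or muscle (6) averaged 1 FPKM. Replicates were not consistently closer to each other than libraries of different groups. The Pearson correlation across genes was 0.9657 within Yy1 knockdown and 0.9693 within control, against 0.9594 to 0.9696 between groups.

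All 40 respiratory genes averaged at least 1 FPKM over the 4 libraries, the level required for testing, and 34 of them lay above the median level of the 12120 rows tested. Of the 40, 28 were lower and 12 higher in Yy1 knockdown by the fitted difference, so 70% were lower, against 46.8% of all rows tested. None passed an adjusted p of 0.05 in limma, and neither did any other row (0% of 12120). At an unadjusted p of 0.05, limma took 8 of the 40 as lower (20%, against 4.69% of all rows) and 0 as higher (against 4.22% of all rows). These 8 were Sdhb in complex II, Uqcrc1, Uqcrh and Uqcr11 in complex III, Cox8a in complex IV, and Atp5a1, Atp5e and Atp5g2 in complex V. The number was 5 without control replicate 1 and also without control replicate 2, and 6 without either Yy1 knockdown replicate. Those fits set 1 library against 2 and assume that the lone library varies like the other group. With limma-voom on the recovered fragments, 7 of the 40 were lower at that level, 0 were higher, and 0 passed the adjusted threshold. The shares of all rows were worked out for the reported fit alone. Counts under other settings therefore have no matching share beside them. At that level 1 gene was higher with no filter, with quantile normalization, with protein-coding genes alone and without control replicate 2.

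In 17 of the 40 genes both Yy1 knockdown libraries lay below both control libraries (42.5%, against 18.9% of all rows tested). In 3 genes, Uqcrq, Cox7a2 and Atp5h, both lay above (7.5%, against 21.8% of all rows). The groups overlapped in the other 20. The median difference was -0.13 on the log2(FPKM + 1) scale, against 0.02 over all rows, and each Yy1 knockdown library taken alone stood at a median of -0.12 relative to the control mean. With 2 libraries a group, an exact two-sided permutation test of a single value cannot go below p = 0.333. The labels do not say whether replicates were separate collections of embryos, so the limma p-values reflect library-to-library spread that may be technical. In bulk RNA, fewer cells of a type and less RNA per cell cannot be told apart.

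**Figure D1:**
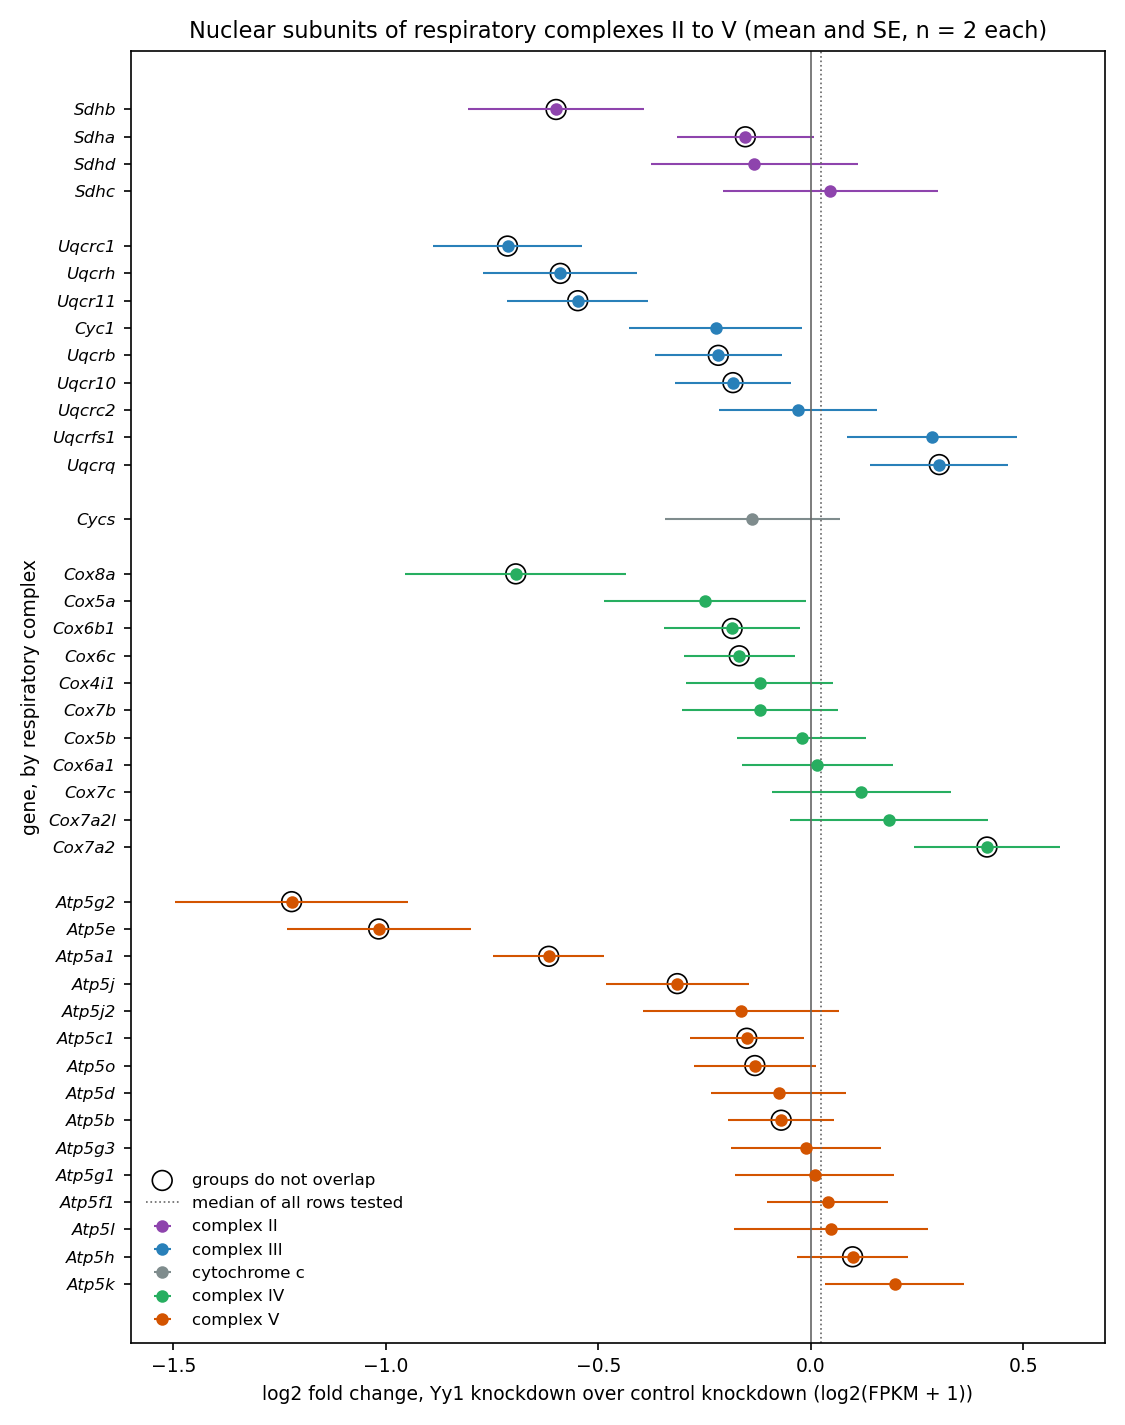
Difference of each of the 40 genes on the log2(FPKM + 1) scale, Yy1 knockdown over control knockdown (point, limma estimate; bar, SE; n = 2 libraries each), grouped by complex. Ringed points mark the 17 genes lower and the 3 genes higher without overlap of the groups; the dotted line is the median of all rows tested, 0.02.

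**Figure D2:**
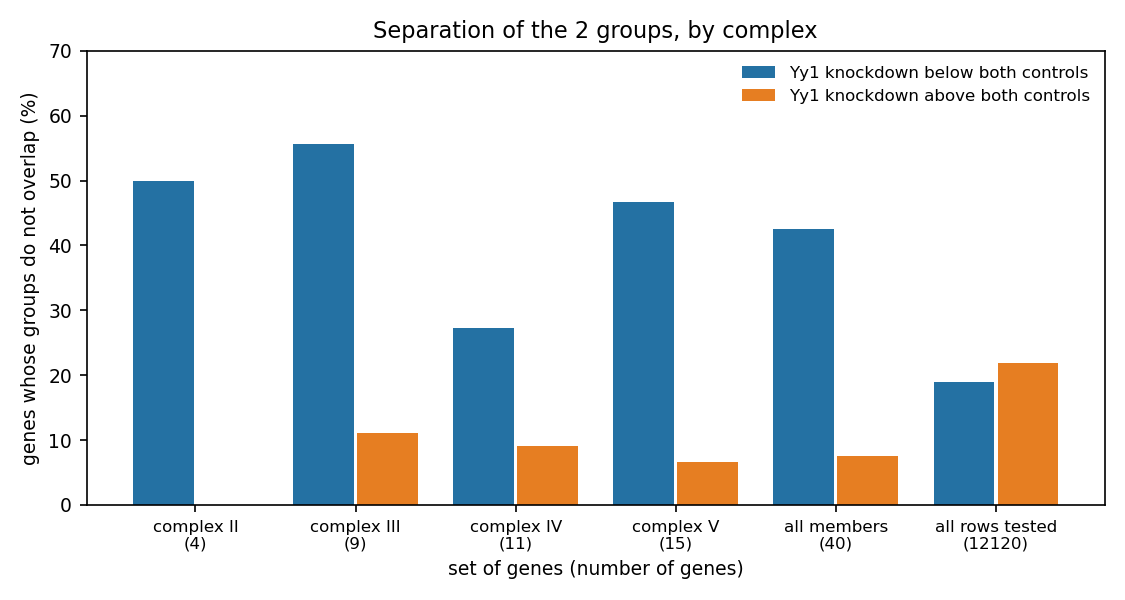
Share of genes, in percent, whose Yy1 knockdown libraries both lay below (blue) or both above (orange) the 2 control libraries, for each complex, all 40 genes and all 12120 rows tested. The blue bar exceeds the orange in every complex, most narrowly in complex IV (27.3% against 9.09%), whereas over all rows tested the orange bar is the higher (18.9% below, 21.8% above).

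The promoters of Atp5e, Atp5g2 and Uqcrc1 are shown because these had the smallest unadjusted p in limma among the genes with a promoter window. Atp5a1 had a smaller p but no window, so its promoter was not searched. Each window runs from 250 bases before to 50 bases after the RefSeq start of the gene, on the gene's own strand, in GRCm38.p6. Capitals mark matches on either strand to 3 core motifs: AANATGG for YY1, GCGCATG for NRF1 (nuclear respiratory factor 1) and CCGGAAG for ETS factors such as GABPA. The windows are chr2:174464052-174464351 (minus strand), chr15:102670998-102671297 (minus strand) and chr9:108936398-108936697 (plus strand).
Atp5e: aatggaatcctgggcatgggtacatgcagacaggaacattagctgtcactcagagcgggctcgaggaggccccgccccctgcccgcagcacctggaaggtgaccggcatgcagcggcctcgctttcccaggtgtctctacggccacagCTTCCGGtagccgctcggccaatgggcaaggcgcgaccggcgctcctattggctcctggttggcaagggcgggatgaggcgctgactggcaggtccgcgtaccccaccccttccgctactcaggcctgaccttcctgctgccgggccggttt
Atp5g2: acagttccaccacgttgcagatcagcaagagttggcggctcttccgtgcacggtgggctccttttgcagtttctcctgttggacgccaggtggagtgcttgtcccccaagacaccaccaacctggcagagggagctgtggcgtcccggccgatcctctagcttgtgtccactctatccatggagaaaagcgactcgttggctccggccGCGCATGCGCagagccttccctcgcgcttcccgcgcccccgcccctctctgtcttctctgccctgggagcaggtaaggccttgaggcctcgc
Uqcrc1: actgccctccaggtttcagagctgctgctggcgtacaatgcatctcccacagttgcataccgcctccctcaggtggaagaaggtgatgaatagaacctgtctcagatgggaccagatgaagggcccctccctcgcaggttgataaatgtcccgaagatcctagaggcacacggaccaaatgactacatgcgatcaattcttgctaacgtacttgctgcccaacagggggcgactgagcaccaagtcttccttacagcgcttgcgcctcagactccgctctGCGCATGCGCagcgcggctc
The Atp5e window holds 1 ETS match on the strand opposite to the gene, with its leftmost base at -102 when the first transcribed base is 0. The Atp5g2 and Uqcrc1 windows each hold the NRF1 core on both strands, as 1 palindrome in which the matches overlap. None of the 3 windows holds the YY1 core.

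Of the 40 genes, 32 matched the RefSeq promoter table, with 35 windows in all. The YY1 core was found in 8 of these windows (22.9%), against 16.1% of all 32851 windows in the table and 16.1% of the 8617 windows of rows tested. The NRF1 core was found in 9 (25.7%), against 3.91% of all windows and 7.66% of those of rows tested. The ETS core was found in 12 (34.3%), against 8.86% and 20.3%. The YY1 matches lay at Atp5b, Atp5c1, Atp5f1, Atp5j, Atp5j2, Atp5k, Cox7b and Cox7c, none of which was among the 8 genes with an unadjusted p under 0.05. Those 8 genes had 7 windows, with none for Atp5a1. Of the 7, 4 held the NRF1 core, 5 the ETS core and 0 the YY1 core. A match is a run of letters and not a binding site.

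In complex II, which oxidises succinate and passes the electrons to ubiquinone, 3 of 4 genes were lower and 1 was higher, with a median difference of -0.14. The clearest difference lay in Sdhb, the iron-sulfur subunit (chromosome 4, 140961271 to 140979198). It had 4.30 and 3.49 FPKM in Yy1 knockdown, against 6.98 and 5.84 FPKM in control, from 328 and 229 fragments in Yy1 knockdown against 538 and 411 in control. The groups did not overlap, and Sdhb was 1.65-fold lower on group means (log2 difference -0.60, SE 0.21, limma adjusted p = 0.532). Sdha, the flavoprotein that binds succinate, had 13.3 and 15.4 FPKM in Yy1 knockdown, against 15.7 and 16.3 FPKM in control. These did not overlap either, but the difference was -0.15 with an SE of 0.16 (limma adjusted p = 0.799). The iron-sulfur to flavoprotein ratio was 0.323 and 0.227 in Yy1 knockdown and 0.443 and 0.358 in control, with no overlap. This ratio was not a planned comparison, and its numerator is the complex II gene with the smallest unadjusted p in limma. Its separation therefore adds nothing to that of Sdhb itself.

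The membrane anchors of complex II overlapped between groups. Sdhd had 4.72 and 3.16 FPKM in Yy1 knockdown and 4.01 and 4.71 FPKM in control (log2 difference -0.13, SE 0.24, limma adjusted p = 0.894). Sdhc, the other anchor, had 1.69 and 2.16 FPKM in Yy1 knockdown and 1.62 and 2.05 FPKM in control, and was the lowest of the 40 genes in control. Summed over the 4 genes, complex II stood at 24.03 and 24.2 FPKM in Yy1 knockdown, against 28.3 and 28.9 FPKM in control.

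Complex III passes electrons from ubiquinol to cytochrome c and had a median difference of -0.22, with 7 of 9 genes lower. In 5 of them the groups did not overlap (55.6%, against 18.9% of all rows tested). Its catalytic genes pointed in opposite directions. Uqcrfs1, the Rieske iron-sulfur protein, had 40.6 and 47.6 FPKM in Yy1 knockdown and 42.1 and 30.6 FPKM in control (log2 difference 0.28, SE 0.20). Cyc1, which carries the heme of cytochrome c1, had 13.8 and 16.4 FPKM in Yy1 knockdown and 20.6 and 15.3 FPKM in control (-0.22, SE 0.20). The libraries overlapped for both catalytic genes.

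The core proteins Uqcrc1 and Uqcrc2 sit side by side on the matrix face of complex III. Uqcrc1 (chromosome 9, 108936648 to 108949641) had 14.6 and 11.5 FPKM in Yy1 knockdown, against 21.9 FPKM in both control libraries, from 2062 and 1392 fragments in Yy1 knockdown against 3122 and 2844 in control. It was 1.68-fold lower on group means (log2 difference -0.71, SE 0.18, limma adjusted p = 0.499). Its partner Uqcrc2 overlapped between groups, with 14.8 and 11.5 FPKM in Yy1 knockdown and 13.9989 and 12.7 FPKM in control (-0.03, SE 0.19). The ratio of Uqcrc1 to Uqcrc2 was 0.991 and 0.997 in Yy1 knockdown, against 1.57 and 1.72 in control. This pair was chosen for the comparison after its values were seen.

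The 5 supernumerary subunits of complex III surround the catalytic core, and 4 lay below and 1 above control without overlap (over all rows tested, 18.9% lay below and 21.8% above). Uqcr11 (chromosome 10, 80402997 to 80406821) had 17.0 and 20.4 FPKM in Yy1 knockdown, against 29.3 and 26.2 FPKM in control, which is 1.48-fold lower (log2 difference -0.55, SE 0.17, limma adjusted p = 0.521). Uqcrh, the hinge protein that helps cytochrome c1 meet cytochrome c (chromosome 4, 116066965 to 116075070), had 16.4 and 13.4 FPKM in Yy1 knockdown, against 20.9 and 24.8 FPKM in control. It was 1.54-fold lower (-0.59, SE 0.18, limma adjusted p = 0.529). Uqcrb, the highest of the complex in mean FPKM, had 59.3 and 70.8 FPKM in Yy1 knockdown and 78.2 and 72.8 FPKM in control. Its difference was smaller (-0.22, SE 0.15). Uqcr10 was similar in size of difference, with 62.6 and 56.2 FPKM in Yy1 knockdown against 65.8 and 69.2 FPKM in control (-0.18, SE 0.14). Uqcrq went the other way, with 30.8 and 32.3 FPKM in Yy1 knockdown and 22.9 and 28.1 FPKM in control (0.30, SE 0.16, limma adjusted p = 0.634).

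Cycs, cytochrome c, the soluble carrier between complexes III and IV, had 12.6 and 17.6 FPKM in Yy1 knockdown and 17.4 and 15.6 FPKM in control. The groups overlapped (log2 difference -0.14, SE 0.21, limma adjusted p = 0.867). Without Yy1 knockdown replicate 1 the sign turned, to 0.09.

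Complex IV, cytochrome c oxidase, reduces oxygen to water around catalytic subunits that come from mitochondrial DNA, and all of its nuclear subunits are supernumerary. Of 11 genes, 7 were lower and 4 higher, and in 7 the groups overlapped (63.6%, against 59.3% of all rows tested). The median was -0.12, but each Yy1 knockdown library alone had a median of -0.04 or -0.03. Cox8a, a small subunit that spans the membrane (chromosome 19, 7215158 to 7217616), differed most. It had 83.3 and 49.2 FPKM in Yy1 knockdown, against 109 and 99.6 FPKM in control, and was 1.58-fold lower (log2 difference -0.69, SE 0.26, limma adjusted p = 0.548). The replicates of Yy1 knockdown lay far apart, at 66.23 ± 24.1 FPKM against 104.3 ± 6.78 FPKM in control (SD, n = 2 each), and without Yy1 knockdown replicate 2 the difference was -0.32. Cox6c and Cox6b1 also stood below control without overlap. Cox6c had 57.7 and 60.8 FPKM in Yy1 knockdown, against 68.8 and 64.7 FPKM in control (-0.17, SE 0.13, limma adjusted p = 0.727). Cox6b1, which faces cytochrome c at the outer side, had 34.4 and 28.1 FPKM in Yy1 knockdown against 36.2 and 34.9 FPKM in control (-0.19, SE 0.16).

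Cox7a2 and Cox7a2l encode related proteins: the first is a subunit of complex IV, and Cox7a2l helps join complexes III and IV into supercomplexes. Cox7a2 (chromosome 9, 79755241 to 79771422) had 22.1 and 21.8 FPKM in Yy1 knockdown, against 14.4 and 18.2 FPKM in control. It was 1.34-fold higher without overlap (log2 difference 0.41, SE 0.17, limma adjusted p = 0.571). Cox7a2l had 29.99 and 30.7 FPKM in Yy1 knockdown and 33.3 and 21.2 FPKM in control, where the libraries lay far apart (0.18, SE 0.23). The ratio of Cox7a2 to Cox7a2l was 0.737 and 0.71 in Yy1 knockdown and 0.433 and 0.859 in control, so it overlapped. The other 6 genes of complex IV all overlapped between groups. Cox5a had 11.3 and 13.2 FPKM in Yy1 knockdown and 11.9 and 18.2 FPKM in control (-0.25, SE 0.24), with control replicate 2 the high library. Cox4i1, the largest nuclear subunit, had 50.5 and 65.5 FPKM in Yy1 knockdown and 59.6 and 65.7 FPKM in control (-0.12, SE 0.17). Cox7b was also at -0.12 and Cox5b at -0.02, whereas Cox6a1 was at 0.01 and Cox7c at 0.12.

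**Figure D3:**
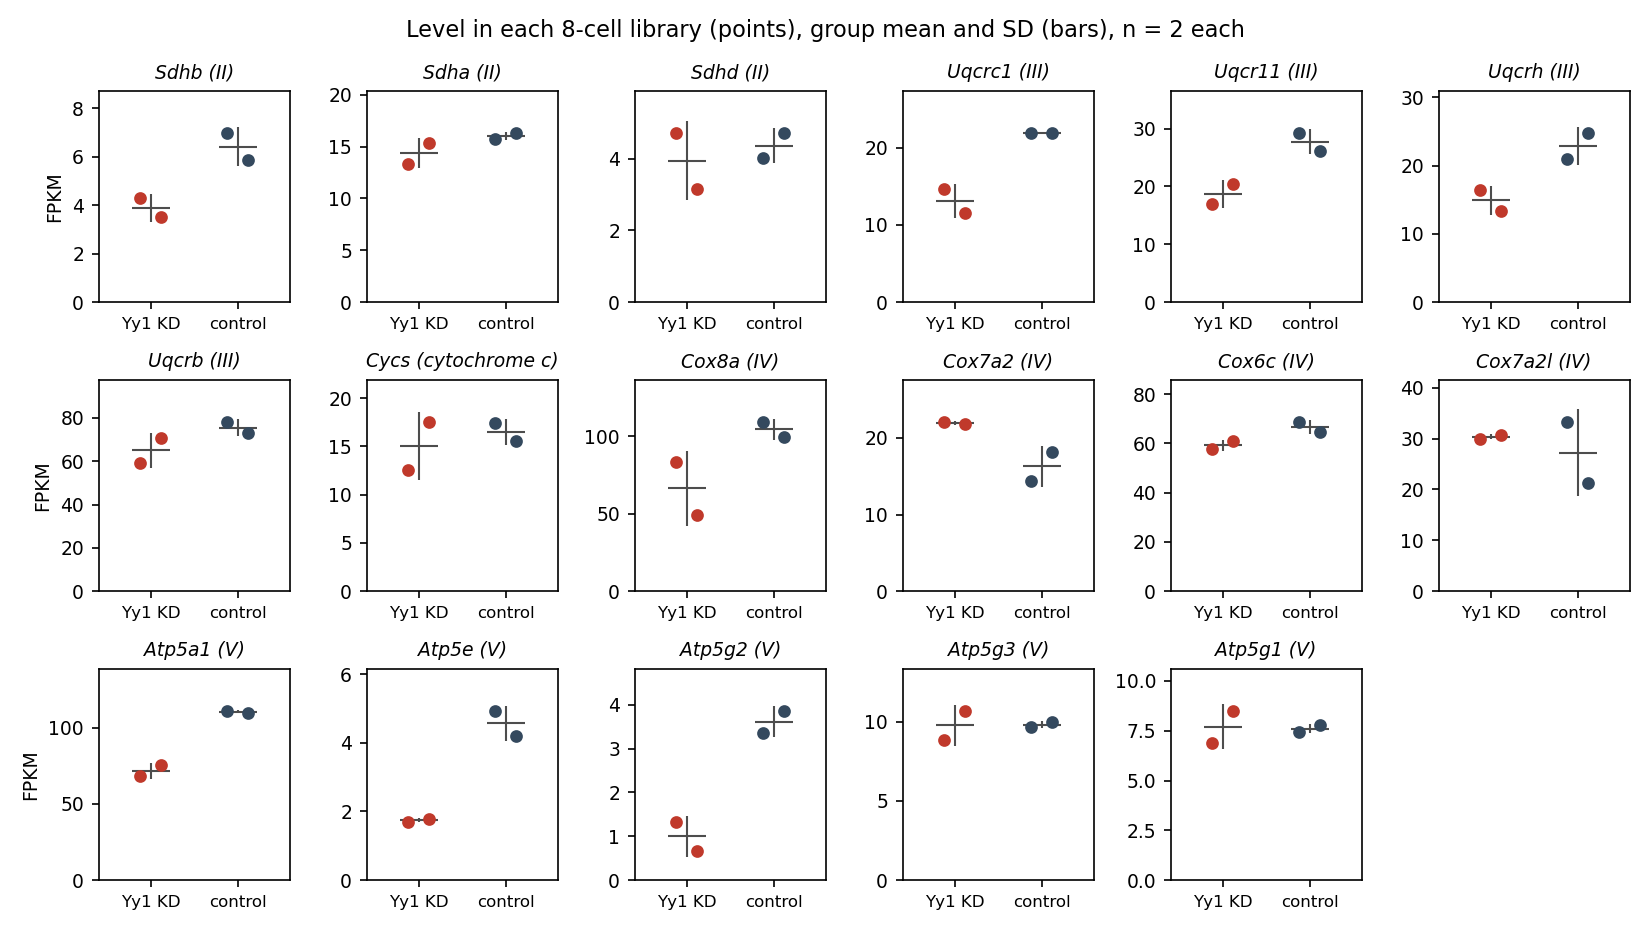
Level in FPKM in each library (points) with the group mean and SD (bars, n = 2 each) for 17 genes; Yy1 knockdown is in red and control in blue, and each panel starts at 0. Sdhb, Uqcrc1, Uqcr11, Uqcrh, Cox8a, Atp5a1, Atp5e and Atp5g2 show both Yy1 knockdown points below both control points, while Cox7a2 shows them above.

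Complex V, the ATP synthase, couples a rotor in the membrane to the catalytic head. Of 15 genes, 10 were lower and 5 higher, and the median was -0.08. Without overlap, 7 were lower (46.7%, against 18.9% of all rows tested) and 1 was higher (6.67%, against 21.8%). The head is built from alternating alpha and beta subunits, and their genes differed in how far they stood from control. Atp5a1, the alpha subunit (chromosome 18, 77773768 to 77782869), had 68.1 and 75.4 FPKM in Yy1 knockdown, against 111 and 109.7 FPKM in control, from 7276 and 6924 fragments in Yy1 knockdown against 11993 and 10799 in control. It was 1.54-fold lower (71.74 ± 5.13 FPKM in Yy1 knockdown against 110.4 ± 1.01 FPKM in control, SD, n = 2 each), with a log2 difference of -0.62 (SE 0.13, limma adjusted p = 0.462). Atp5b, the beta subunit, was close to control, with 85.3 and 89.5 FPKM in Yy1 knockdown and 91.4 and 92.1 FPKM in control (-0.07, SE 0.13, limma adjusted p = 0.893). The alpha to beta ratio of FPKM was 0.798 and 0.842 in Yy1 knockdown, against 1.22 and 1.19 in control. Which gene of the pair is the more abundant depends on the division by gene length. In fragments, Atp5b stood above Atp5a1 in all 4 libraries, at 12319 and 11116 in Yy1 knockdown and 13339 and 12257 in control. This pair, too, was chosen after its values were seen.

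The central stalk joins head and rotor, and all 3 of its genes were lower. Atp5e, the epsilon subunit (chromosome 2, 174461075 to 174464101), had 1.70 and 1.79 FPKM in Yy1 knockdown, against 4.93 and 4.21 FPKM in control. These rest on 51 and 46 fragments in Yy1 knockdown and 149 and 116 in control. Atp5e was 2.62-fold lower on group means, and its log2 difference of -1.02 (SE 0.22, limma adjusted p = 0.462) understates the fold because 1 FPKM is added to low values. Atp5c1, the gamma subunit that turns inside the head, had 60.7 and 55.0 FPKM in Yy1 knockdown and 63.8 and 64.7 FPKM in control, without overlap (-0.15, SE 0.13). Atp5d, the delta subunit, had 20.3 and 23.97 FPKM in Yy1 knockdown and 22.6 and 23.96 FPKM in control, and overlapped (-0.08, SE 0.16).

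Subunit c, whose copies form the rotor ring, is encoded by Atp5g1, Atp5g2 and Atp5g3, which give the same mature protein. Atp5g2 (chromosome 15, 102662868 to 102671047) had 1.33 and 0.672 FPKM in Yy1 knockdown, against 3.36 and 3.86 FPKM in control, from 76 and 33 fragments in Yy1 knockdown against 194 and 203 in control. It was 3.60-fold lower on group means, the largest fold among the 40 genes (log2 difference -1.22, SE 0.27, limma adjusted p = 0.462). As for Atp5e, the log2 difference understates the fold because 1 FPKM is added to low values. Atp5g1 overlapped, with 6.89 and 8.50 FPKM in Yy1 knockdown and 7.44 and 7.77 FPKM in control (0.01, SE 0.19). Atp5g3 also overlapped, with 8.87 and 10.7 FPKM in Yy1 knockdown and 9.65 and 9.99 FPKM in control (-0.01, SE 0.18). Atp5g2 made up 7.79% and 3.39% of the subunit c FPKM in Yy1 knockdown, against 16.4% and 17.9% in control. Because Atp5g1 and Atp5g3 differed little, this share mostly restates the difference of Atp5g2 itself. Summed over the 3 genes, subunit c stood at 17.1 and 19.9 FPKM in Yy1 knockdown, against 20.5 and 21.6 FPKM in control.

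**Figure D4:**
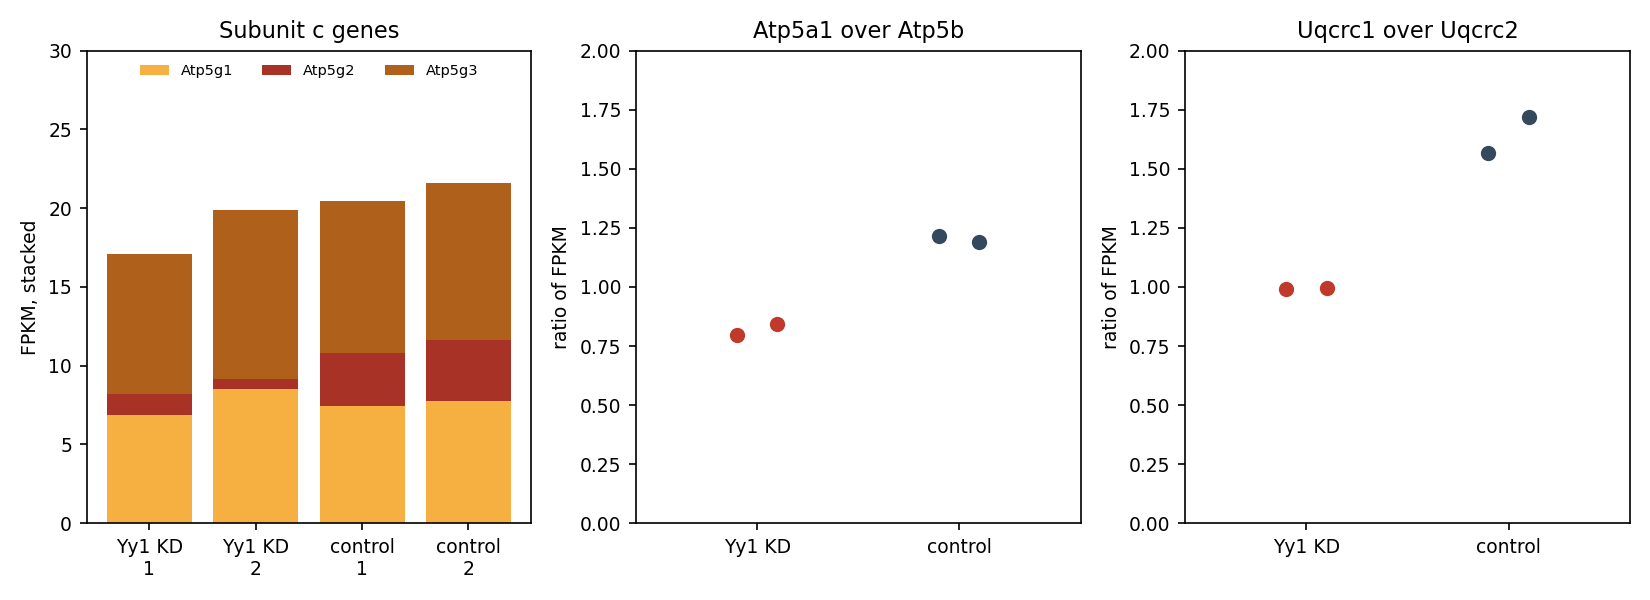
Left, FPKM of the 3 subunit c genes stacked for each library; middle and right, ratio of FPKM of Atp5a1 to Atp5b and of Uqcrc1 to Uqcrc2 in each library, with Yy1 knockdown in red and control in blue. The Atp5g2 band is thinner in both Yy1 knockdown libraries, and both ratios are lower in both Yy1 knockdown libraries (0.798 to 0.842 in Yy1 knockdown against 1.19 to 1.22 in control, and 0.991 to 0.997 in Yy1 knockdown against 1.57 to 1.72 in control).

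The peripheral stalk holds the head still against the turning rotor, and its 4 genes were mixed. Atp5j, coupling factor F6, had 38.8 and 49.96 FPKM in Yy1 knockdown and 55.5 and 54.4 FPKM in control, without overlap (log2 difference -0.31, SE 0.17, limma adjusted p = 0.634). Atp5o, the subunit that ties the stalk to the head, had 21.1 and 20.05 FPKM in Yy1 knockdown against 22.6 and 22.7 FPKM in control (-0.13, SE 0.14). Atp5h, subunit d, stood above control without overlap, with 85.4 and 87.0 FPKM in Yy1 knockdown and 76.8 and 84.3 FPKM in control (0.10, SE 0.13), and Atp5f1, subunit b, overlapped (0.04). The membrane-domain genes Atp5j2, Atp5k and Atp5l, subunits f, e and g, overlapped, with differences of -0.16, 0.20 and 0.05. Atp5k was among the highest of the 40 genes in FPKM, at 92.3 and 77.7 in Yy1 knockdown and 67.4 and 80.6 in control. Atp5l, its partner in ATP synthase dimers, stood at 5.48 and 3.80 FPKM in Yy1 knockdown and 4.30 and 4.50 FPKM in control. FPKM divides by gene length, and these genes lay much closer in fragments. Atp5k had 1937 and 1403 fragments in Yy1 knockdown and 1430 and 1560 in control. Atp5l had 1204 and 718 in Yy1 knockdown and 954 and 911 in control.

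**Figure D5:**
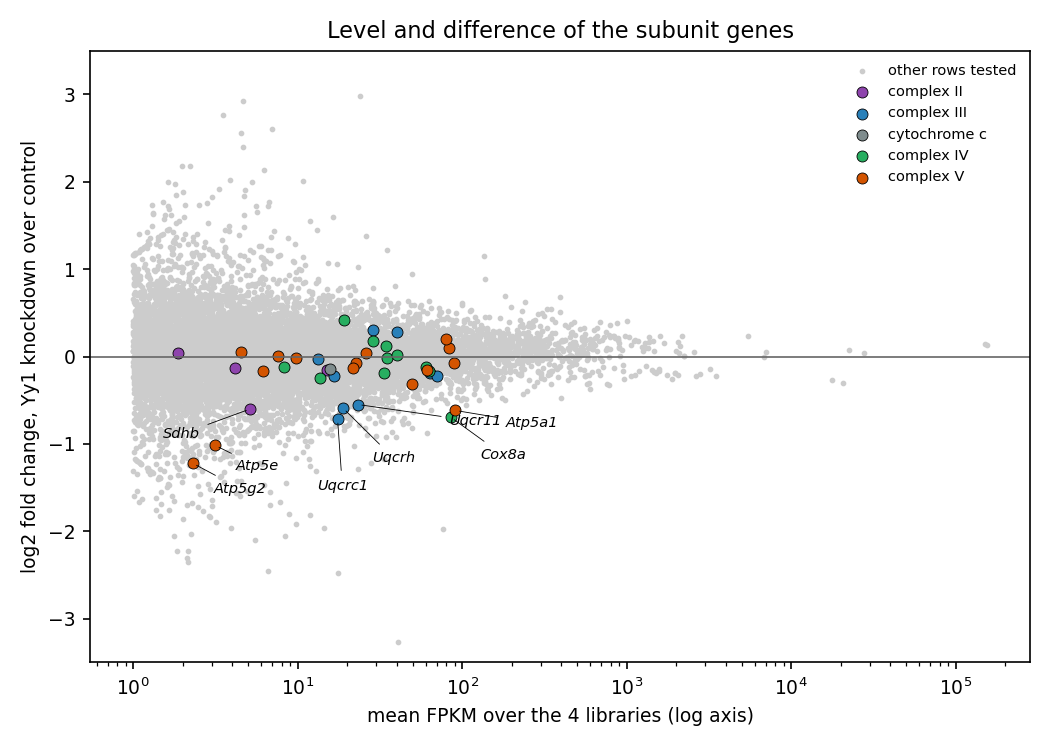
Difference (log2(FPKM + 1), Yy1 knockdown over control knockdown) of all 12120 rows tested against their mean FPKM over the 4 libraries on a log axis, with the 40 genes coloured by complex. The 8 named genes, all below 0, lie at low levels (Atp5g2, Atp5e, Sdhb), middle levels (Uqcrc1, Uqcrh, Uqcr11) and high levels (Atp5a1, Cox8a) of the range the 40 genes cover.

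Summed over the 40 genes, FPKM was 1243 and 1245 in Yy1 knockdown, against 1384 and 1383 in control, a difference of -139 FPKM between group means. Atp5a1 and Cox8a, the genes with the largest drops in mean FPKM, accounted for 55.1% of this difference, and their choice was not planned. Without them, the other 38 genes summed to 1092 and 1120.14 FPKM in Yy1 knockdown, against 1163 and 1174 FPKM in control. The groups did not overlap in either sum. As a share of all FPKM, the 40 genes held 0.146% and 0.147% in Yy1 knockdown, against 0.164% and 0.174% in control. The control libraries were thus less alike in this share than in the sum. By complex, the sums were 269.8 and 280.2 FPKM in Yy1 knockdown against 316 and 302 FPKM in control for complex III. Complex IV summed to 409 and 386 FPKM in Yy1 knockdown against 449 and 441 FPKM in control, and complex V to 528 and 537 FPKM in Yy1 knockdown against 573 and 596 FPKM in control.

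The mitochondrially encoded partners of these subunits were 6 genes, mt-Cytb of complex III, mt-Co1, mt-Co2 and mt-Co3 of complex IV, and mt-Atp6 and mt-Atp8 of complex V. All 6 were lower by the fitted difference, 0 with an unadjusted p under 0.05 (4.69% of all rows tested), and 2 (mt-Co2 and mt-Atp8) without overlap (33.3%, against 18.9% of all rows). Their median difference was -0.18, and their limma adjusted p lay between 0.75 and 0.829. Summed, they stood at 9992 and 11583 FPKM in Yy1 knockdown and at 13563 and 10902 FPKM in control, so control replicate 1 was the high library. Mitochondrial genes held 6.77% and 6.60% of fragments in Yy1 knockdown and 9.11% and 6.99% in control. A chromosome 1 pseudogene row, Gm10925, averaged 3485 FPKM over the 4 libraries, against 2800 FPKM for mt-Atp6. How reads shared with such copies were counted is not given, so these mitochondrial levels are uncertain.

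Assembly factors, which build the complexes without staying in them, were tested where they averaged at least 1 FPKM. For complex III, 5 of 6 were tested: 3 were lower, 2 were higher, and Uqcc2, which helps cytochrome b to be made and inserted, had the smallest unadjusted p among the additional pathway genes after Yy1. Uqcc2 had 3.54 and 3.18 FPKM in Yy1 knockdown, against 12.4 and 16.2 FPKM in control (log2 difference -1.80, limma adjusted p = 0.237). For complex IV, 16 of 20 were tested, of which 13 were lower and 3 higher (median -0.19), with 2 lower at an unadjusted p of 0.05 (12.5%, against 4.69% of all rows tested). Those 2, named after their values were seen, were Surf1, an early assembly factor of complex IV, and Coa3, which stabilises newly made mitochondrial Cox1. Surf1 had 4.60 and 4.01 FPKM in Yy1 knockdown against 7.09 and 9.74 FPKM in control, and Coa3 had 1.82 and 2.31 FPKM in Yy1 knockdown against 8.49 and 4.24 FPKM in control (limma adjusted p = 0.502 for both). Of 7 assembly factors of complexes II and V, 4 were tested, with 3 lower and 1 higher. At an unadjusted p of 0.05 in limma, 1 was lower (25%, against 4.69% of all rows tested). It was Atpaf1, named after its values were seen, with 1.67 and 1.49 FPKM in Yy1 knockdown against 2.96 and 2.74 FPKM in control (limma adjusted p = 0.556). No assembly factor passed the adjusted threshold in limma.

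Of 14 tissue-restricted isoforms and associated subunits, 9 were tested, with 3 lower and 6 higher (median 0.20). Cyct, the testis form of cytochrome c and also one of the sperm markers above, was singled out after its values were seen. It had 3.27 and 3.13 FPKM in Yy1 knockdown, against 1.24 and 1.12 FPKM in control, from 73 and 60 fragments in Yy1 knockdown against 28 and 23 in control (log2 difference 0.95, limma adjusted p = 0.491). Of 10 transcription factors of respiratory genes, 8 were tested, with 3 lower, Yy1 itself among them, and 5 higher. Gabpa, the DNA-binding subunit of GABP, an ETS factor, had 78.4 and 76.4 FPKM in Yy1 knockdown, against 54.2 and 50.7 FPKM in control (0.55, limma adjusted p = 0.465). Ppargc1a, the gene of PGC-1alpha, was at or near 0 in all 4 libraries. The sources used here do not say how reads shared with near-identical gene copies were counted. The levels of genes with copies, such as Atp5k, Atp5l, Uqcrh, Cycs and mt-Atp6, are therefore uncertain.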

How the data were processed

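Per the labels' protocols, total RNA of 8-cell embryos was made into libraries with a stranded SMART-Seq kit. Named in the submitters' processing notes, with no role, are HISAT2 2.2.1, Bowtie2 2.4.3, SAMtools 1.4.1, Trim Galore 0.6.7, R 4.0.3, bedtools, featureCounts and mm10. Annotation release and strand setting were not given in the sources used here. The values used are FPKM as deposited by the authors, 1 column per library.

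Whole fragments were recovered from the FPKM steps: all 12120 rows tested gave whole numbers in the 4 libraries within 0.002 fragments. The 40 genes had 33 to 13339 fragments per library, and depth limits counting error only. Rows averaging at least 1 FPKM were tested with limma 3.58.1 in R 4.3.3 on log2(FPKM + 1), group alone, with a mean-variance trend and Benjamini-Hochberg adjustment over all rows; the fit was tested on simulated data. Fold changes given in words are ratios of mean FPKM. Fragments of replicates differed by much more than counting error (chi-square over its degrees of freedom 50.9 in Yy1 knockdown and 75.9 in control), so each library counts as 1 replicate. The labels do not say that equal replicate numbers pair the libraries, so no pairing was used in the reported fit.

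Named in full are, per complex, the 3 genes with the smallest unadjusted p and the gene highest in mean FPKM, with the isoform sets. Over the other pathway lists, the 3 genes with the smallest p are named. The members and lists were chosen with earlier results of these data known. Coordinates and promoters come from RefSeq GRCm38.p6, the assembly of mm10. Protein sequences were not used here. Alternatives were another pseudocount, filters, scalings, moderation, protein-coding genes alone, a replicate block, limma-voom and leaving out each library.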

Additional observations from a re-analysis of the deposited data

How the results depend on the processing

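No respiratory gene passed an adjusted p of 0.05 under any of the 14 alternatives, and the smallest adjusted p was 0.132, for Atp5g2 with protein-coding genes alone. Over all rows, 0 passed, 4 with a filter of 5 FPKM, 1 with robust moderation, 14 with protein-coding genes alone and 13 with limma-voom. Of the 40 genes 28 were lower in the reported fit, 26 to 30 with 1 library left out and 31 with median-ratio scaling. The 5 FPKM filter kept 35, of which 25 were lower. Median-ratio scaling also moved the median difference of all rows, from 0.024 to -0.015. With a replicate block, 28 were lower, 8 of them at an unadjusted p of 0.05, and 0 were called; the replicate deviations correlated at 0.0994 between same-numbered libraries. The block changed no other call.

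The median of complex II was -0.38 with the 5 FPKM filter, which left 2 genes, and with median-ratio scaling complex IV was at -0.16 and complex V at -0.12. With 1 library left out, medians ranged from -0.21 to -0.084 (complex II), -0.34 to -0.17 (III), -0.14 to -0.030 (IV) and -0.14 to -0.036 (V), and cytochrome c from -0.36 to 0.087. Signs turned for 5 of the 17 genes given in full: Atp5g1 was at -0.031 with median-ratio scaling and ranged from -0.12 to 0.14 with 1 library left out, Atp5g3 from -0.13 to 0.11, Sdhd from -0.36 to 0.097, Cycs from -0.36 to 0.087 and Cox7a2l from -0.13 to 0.50. The cause was not tested. Depth limits Atp5g2 and Atp5e most, with 33 to 203 and 46 to 149 fragments a library.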

Other observations

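Processed pseudogenes of these subunits also had values. Atp5l2-ps, a copy of Atp5l, stood at 35.0 and 28.0015 FPKM in Yy1 knockdown and 26.1 and 32.7 FPKM in control. That is above the FPKM of Atp5l itself in every library, but FPKM divides by gene length, and in fragments the order was reversed. Atp5l2-ps had 93 and 64 fragments in Yy1 knockdown and 70 and 80 in control. Atp5l had 1204 and 718 fragments in Yy1 knockdown and 954 and 911 in control. Atp5l-ps1 had 9.22 and 6.02 FPKM in Yy1 knockdown, against 5.40 and 5.10 FPKM in control. Atp5k-ps2 had 4.33 and 5.04 FPKM in Yy1 knockdown, against 2.35 and 3.03 FPKM in control (limma adjusted p = 0.533).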
